A study of Mus musculus with 9 samples.

Results

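The genes described here are 49 mouse genes of the interferon response and of nucleic acid sensing, taken by symbol from a list of interferon-stimulated genes, interferon factors and receptors, and sensors of foreign or misplaced nucleic acids. Of these, 48 were matched to an identifier among the 19044 Ensembl genes of the table, and Gbp6 was not analysed here. Ddx58 and Tmem173 are the symbols in the annotation for the genes of RIG-I and STING. The 48 genes fall into 8 roles, from 3 genes of the ISG15 system to 9 of the IFIT and OAS families and PKR.

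RNA was sequenced from 3 lines of mouse squamous cell carcinoma (SCC) cells, with 3 libraries of each line, to learn which genes depend on focal adhesion kinase (FAK) and on its kinase activity. All 3 lines go back to skin tumours raised by chemical carcinogenesis with DMBA and TPA in FVB mice that carried a floxed FAK gene and K14CreER, a tamoxifen-activated recombinase driven by the keratin 14 promoter. FAK was then deleted by growing the tumour cells with 4-hydroxytamoxifen, and FAK-/- cells are 1 clone of them. FAK-WT-expressing cells are that clone with wild-type FAK put back by retroviral induction, and FAK-kd-expressing cells carry a kinase-deficient FAK in the same way, so that all 3 lines share the deletion and differ in what was put back. Cells with a construct were also selected with hygromycin, and effects of this selection cannot be told apart from those of the FAK protein in comparisons with FAK-/- cells. Each line is thus 1 population from 1 clone, and the sources used here do not give whether the FAK-/- cells carry an empty vector. Ptk2, the gene of FAK, was at 21.6 ± 1.93 CPM (counts scaled to library size; SD, n = 3) in FAK-/-, 163 ± 11.5 in FAK-kd and 215 ± 1.92 in FAK-WT cells. It was higher in FAK-WT than in FAK-kd cells by a log2 fold change of 0.40 (edgeR, adjusted p = 0.0016). The lines with FAK put back thus also differed in the amount of its RNA.

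Interferons are secreted proteins that cells release when sensors in the cytosol detect viral or misplaced RNA or DNA. Type I and type II interferons act through the receptors IFNAR and IFNGR, which activate STAT and IRF transcription factors. These switch on interferon-stimulated genes, whose products cut or bind foreign RNA, block virus entry or assembly, or raise the alarm further. Many such genes carry in their promoters a pair of GAAA repeats known as the interferon-stimulated response element (ISRE). Carcinoma cells can express part of this programme without infection.

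The libraries held between 25304994 and 37264636 counts, apart from FAK-WT replicate 1, which held 779755. A single count was worth 1.26 CPM in FAK-WT replicate 1 and between 0.0266 and 0.0394 CPM in the other 8 libraries, so a count of 0 there allows up to 3.78 CPM (3 counts). In that library 24 of the 48 genes had 3 counts or fewer and 17 had none. A mean ± SD weighs the libraries of a line equally, so the shallow library carries as much of a FAK-WT mean as each deep one, while it adds few counts to the fits and the pooled ratios. FAK-/- replicate 3 was farthest from its group in gene counts. Of the 7 epithelial markers matched, Krt5, Krt14, Krt18 and Cdh1 had group means between 0 and 0.139 CPM, Krt8 and Sfn of at most 1.02, and only Itga6 was high (172 to 289 CPM), so the keratin 5 and 14 genes that mark epidermal cells were near 0 in all 3 lines. Itga6 was lower in FAK-WT than in FAK-/- and FAK-kd cells (log2 fold changes -0.75 and -0.61, adjusted p = 7.7e-07 and 7.4e-06). Krt8 was higher in FAK-kd than in FAK-/- cells (2.13, adjusted p = 0.0055). The summed level of the epithelial list was 170 to 175 CPM in FAK-WT, 283 to 297 in FAK-/- and 253 to 275 in FAK-kd libraries. That of the 7 fibroblast markers matched was 1605 to 1701 CPM in FAK-WT, 1345 to 1630 in FAK-/- and 1409 to 1988 in FAK-kd libraries, nearly all of it the collagen gene Col3a1, while Col1a1 (0.509 to 1.38 CPM as group means), Dcn (0.0819 to 0.347) and Thy1 (0 to 0.0177) were near 0. Of the same list, the growth factor receptor genes Pdgfra and Pdgfrb were lower in FAK-WT than in FAK-/- (log2 fold changes -1.44 and -2.04, adjusted p = 1.3e-05 and 4.3e-07) and than in FAK-kd cells (-1.11 and -2.40, adjusted p = 1.6e-04 and 7.3e-08). Dcn was higher in FAK-WT than in FAK-/- (2.24, adjusted p = 0.043) and Col1a2 higher in FAK-kd than in FAK-/- cells (1.29, adjusted p = 0.0047). Of the 6 leukocyte markers matched, the summed level was 0 to 2.21 CPM in FAK-WT, 2.96 to 3.46 in FAK-/- and 1.56 to 2.72 in FAK-kd libraries, most of it Cd68. The summed level of the 4 endothelial markers was 1.26 to 2.05 CPM in FAK-WT, 0.360 to 0.513 in FAK-/- and 0.240 to 0.351 in FAK-kd libraries, through Cdh5. The part of these markers in the differences described was not tested. In bulk RNA, fewer cells with a gene active and less RNA per cell cannot be told apart.

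Promoters of the genes were searched for short elements. The list was chosen as interferon-response genes, many of which carry an ISRE, so a raised share describes the list and tests nothing. RefSeq windows of 300 bases on GRCm38.p6, from 250 bases before to 50 after a gene start, were found for 37 of the 48 genes (41 windows). The ISRE letters GAAA, 2 bases of any kind and GAAA occurred on either strand in 17 of the 41 windows (41.5%) and in 3.44% of all 32851 windows. TTCNNNGAA, the GAS element bound by STAT dimers, occurred in 11 windows (26.8%, against 8.30% of all), and TGANTCA, an AP-1 site, in 7 (17.1%, against 7.81%). Of the 14 genes with a window that were past 2-fold in a comparison (defined with the comparisons), 10 held the ISRE letters, as did 7 of the other 23. The GAS letters were held by 3 of the 14 and 8 of the 23, and the AP-1 letters by 4 and 3. The 14 were picked by their change in these data, and none of these splits was tested. Parts of 5 ISRE-holding promoters of genes past 2-fold are printed to show the element in genes that did not all move the same way. They are given 5′ to 3′ on the gene's strand, with the bases of each ISRE match in capitals. The matches in Ddx58 and Ifitm3 lie at or after the gene start, so 30 bases are given for each.
Ifit1, chr19:34640725-34640873, plus strand: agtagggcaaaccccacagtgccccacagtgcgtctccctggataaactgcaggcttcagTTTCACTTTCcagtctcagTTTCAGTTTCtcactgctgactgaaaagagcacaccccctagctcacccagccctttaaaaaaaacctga
Isg15, chr4:156200819-156200956, minus strand: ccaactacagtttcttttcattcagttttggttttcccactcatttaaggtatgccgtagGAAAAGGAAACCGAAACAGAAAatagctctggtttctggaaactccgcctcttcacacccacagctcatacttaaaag
Bst2, chr8:71537527-71537662, minus strand: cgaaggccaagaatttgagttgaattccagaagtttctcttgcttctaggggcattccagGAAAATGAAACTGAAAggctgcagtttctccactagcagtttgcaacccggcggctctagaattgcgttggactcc
Ddx58, chr4:40239804-40239833, minus strand: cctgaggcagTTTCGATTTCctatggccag
Ifitm3, chr7:141010715-141010744, minus strand: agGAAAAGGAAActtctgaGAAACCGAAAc
Ifit1 and Isg15 were higher in FAK-WT than in both other lines, Bst2 with a like pair of repeats was lower, and Ifitm3 was higher in FAK-WT and FAK-kd than in FAK-/- cells. The windows of Aim2, Ifit2, Oasl1 and Oasl2 held no such letters, which says nothing of the factors that act on them.

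The genes ranged from absent to abundant. Over all 9 libraries 28 of the 48 had a mean of at least 1 CPM and 20 were under it, and 32 passed a standard filter on low counts. Every library had 3 counts or fewer for 10 of the genes in FAK-/-, 12 in FAK-kd and 4 in FAK-WT cells. The same count was not made over all genes, and in FAK-WT it rests mainly on the deep libraries. Per kb of transcript, the antiviral membrane proteins Ifitm2 (222 to 240 CPM per kb as group means) and Ifitm3 (89.2 to 183) were far above the rest, followed by Ifi27 (25.0 to 35.4) and Bst2 (9.21 to 23.3). The 4 receptors and Irf2, Irf3, Stat3 and Tmem173 lay between 5.87 and 22.6 CPM per kb, and Zbp1, Oas1a, Oas2 and Oas3 stayed under 0.03 as group means in every line.

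**Figure D1:**
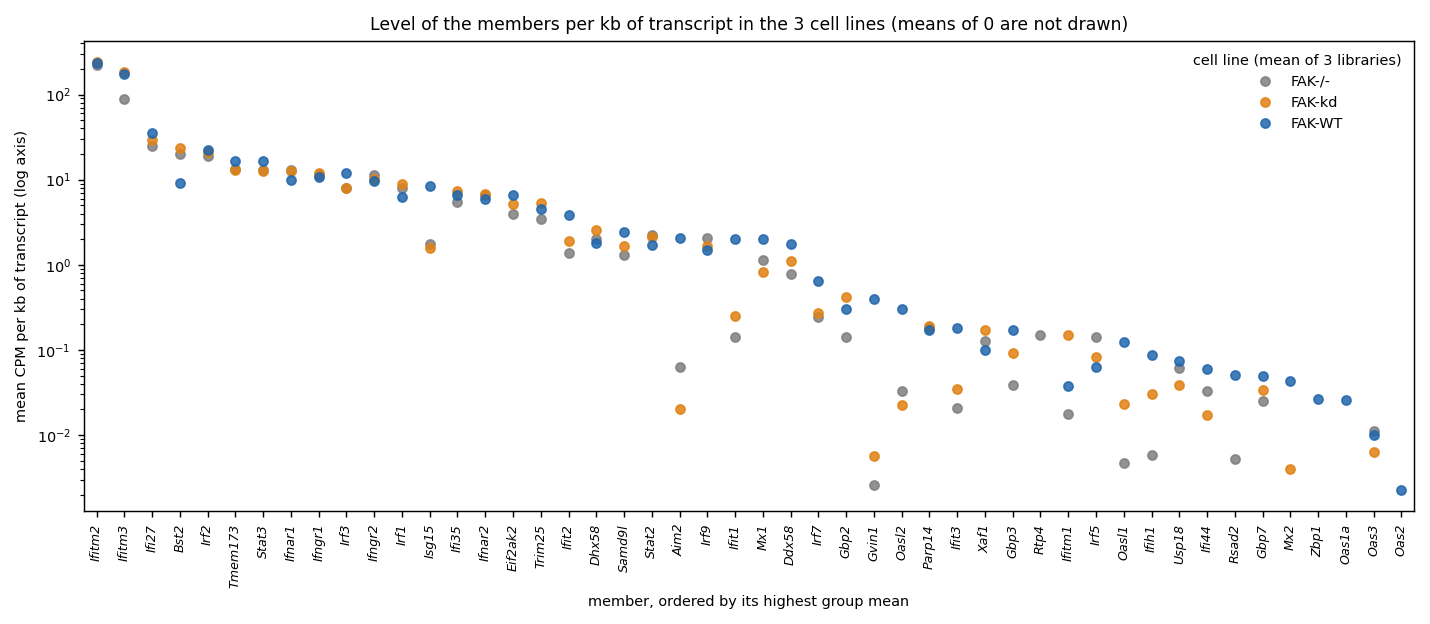
Level of each gene per kb of transcript (log axis, group mean of 3 libraries) in FAK-/- (grey), FAK-kd (orange) and FAK-WT cells (blue), ordered by the highest of the 3 means. The lines lie together for Ifitm2 at 222 to 240 CPM per kb. Among the other abundant genes, FAK-/- is lowest for Ifitm3 (89.2 to 183) and FAK-WT for Bst2 (9.21 to 23.3). The lines spread apart for Isg15, Aim2, Ifit1 and Gvin1, where FAK-WT is highest.

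FAK-WT cells had higher levels of a set of interferon-stimulated genes than FAK-/- cells. In edgeR's quasi-likelihood test, adjusted over all 19044 genes, 20 of the 48 genes were higher in FAK-WT and 3 were lower at an adjusted p of 0.05 or below, where 8.01% of all genes were higher and 9.96% lower. Past 2-fold as well, meaning log2 fold changes of 1 or more in either direction, were 13 higher and 1 lower, against 2.32% and 3.06% of all genes. The FAK-WT libraries lay all above the FAK-/- libraries for 19 genes and all below for 6 (12.1% and 17.5% of all genes). For 4 of the 19 (Gvin1, Ifit1, Irf7 and Oasl2) and 2 of the 6 (Irf5 and Rtp4) the shallow library had 3 counts or fewer and its place is not known, which leaves 15 and 4. The shares over all genes are without this limit, so they do not serve as a measure for the 15 and 4. The median log2 fold change was 0.57 over the 48 genes (0.55 with genes at 0 in a group set to their bound, n = 46) and 0 over all genes. Without FAK-WT replicate 1, 19 of the 20 and all 3 were still called. Without FAK-WT replicate 2 the test called 13 higher and 1 lower, and without FAK-WT replicate 3 it called 15 and 1. Calls over all genes in either direction also fell, from 3422 to 2084 and 2026.

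Against FAK-kd cells, 12 of the 48 genes were higher in FAK-WT and 4 lower, where 7.58% and 10.2% of all genes were. Past 2-fold were 9 higher and 1 lower (2.37% and 2.89% of all genes). The libraries lay all above for 12 and all below for 6 (13.1% and 19.7% of all genes). With over 3 counts in the shallow library they lay so for 9 and 5, for which no share over all genes was computed. The median log2 fold change was 0.33 (0.33 at the bounds, n = 46). Between FAK-kd and FAK-/- cells, 4 of the 48 genes were higher in FAK-kd and 1 lower (8.33% and 2.08%, against 3.97% and 3.88% of all genes). Past 2-fold were 2 and 1 (0.914% and 1.09% of all genes), and 11 and 6 were without overlap (12.8% and 12.6%). The median log2 fold change was 0.14 (0.16 at the bounds, n = 43). Without FAK-/- replicate 3, 16 genes were higher and 8 lower in FAK-WT than in FAK-kd cells. Calls over all genes in either direction also rose there, from 3376 to 5366. The lower calls fell from 4 to 1 without FAK-WT replicate 3 and to 2 without FAK-WT replicate 2 or FAK-kd replicates 2 or 3. Over all genes the calls in either direction also fell in these fits, to between 2096 and 2432. Between FAK-kd and FAK-/- cells, 6 genes were higher without FAK-WT replicate 1 and 2 without FAK-/- replicate 2 or any 1 FAK-kd replicate. The lower call was lost without any 1 of the latter 4 libraries. Calls over all genes, 1494 with all libraries, were 1675 without FAK-WT replicate 1 and 718 to 1356 without 1 of those 4. The 3 comparisons share libraries in pairs, so their values are given side by side and not set against each other.

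**Figure D2:**
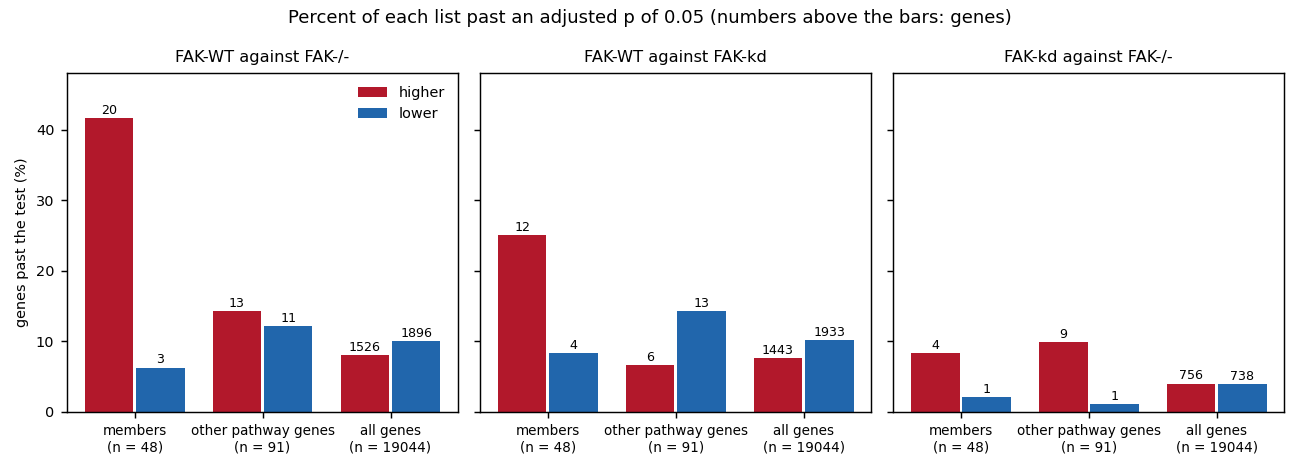
Percent of the 48 genes, of 91 other genes of the pathway and of all 19044 genes that were higher (red) or lower (blue) at an adjusted p of 0.05 or below, in each comparison, with the number of genes above each bar. For FAK-WT against FAK-/- the bars of the 48 genes stand for 20 higher and 3 lower, beside 8.01% and 9.96% of all genes.

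**Figure D3:**
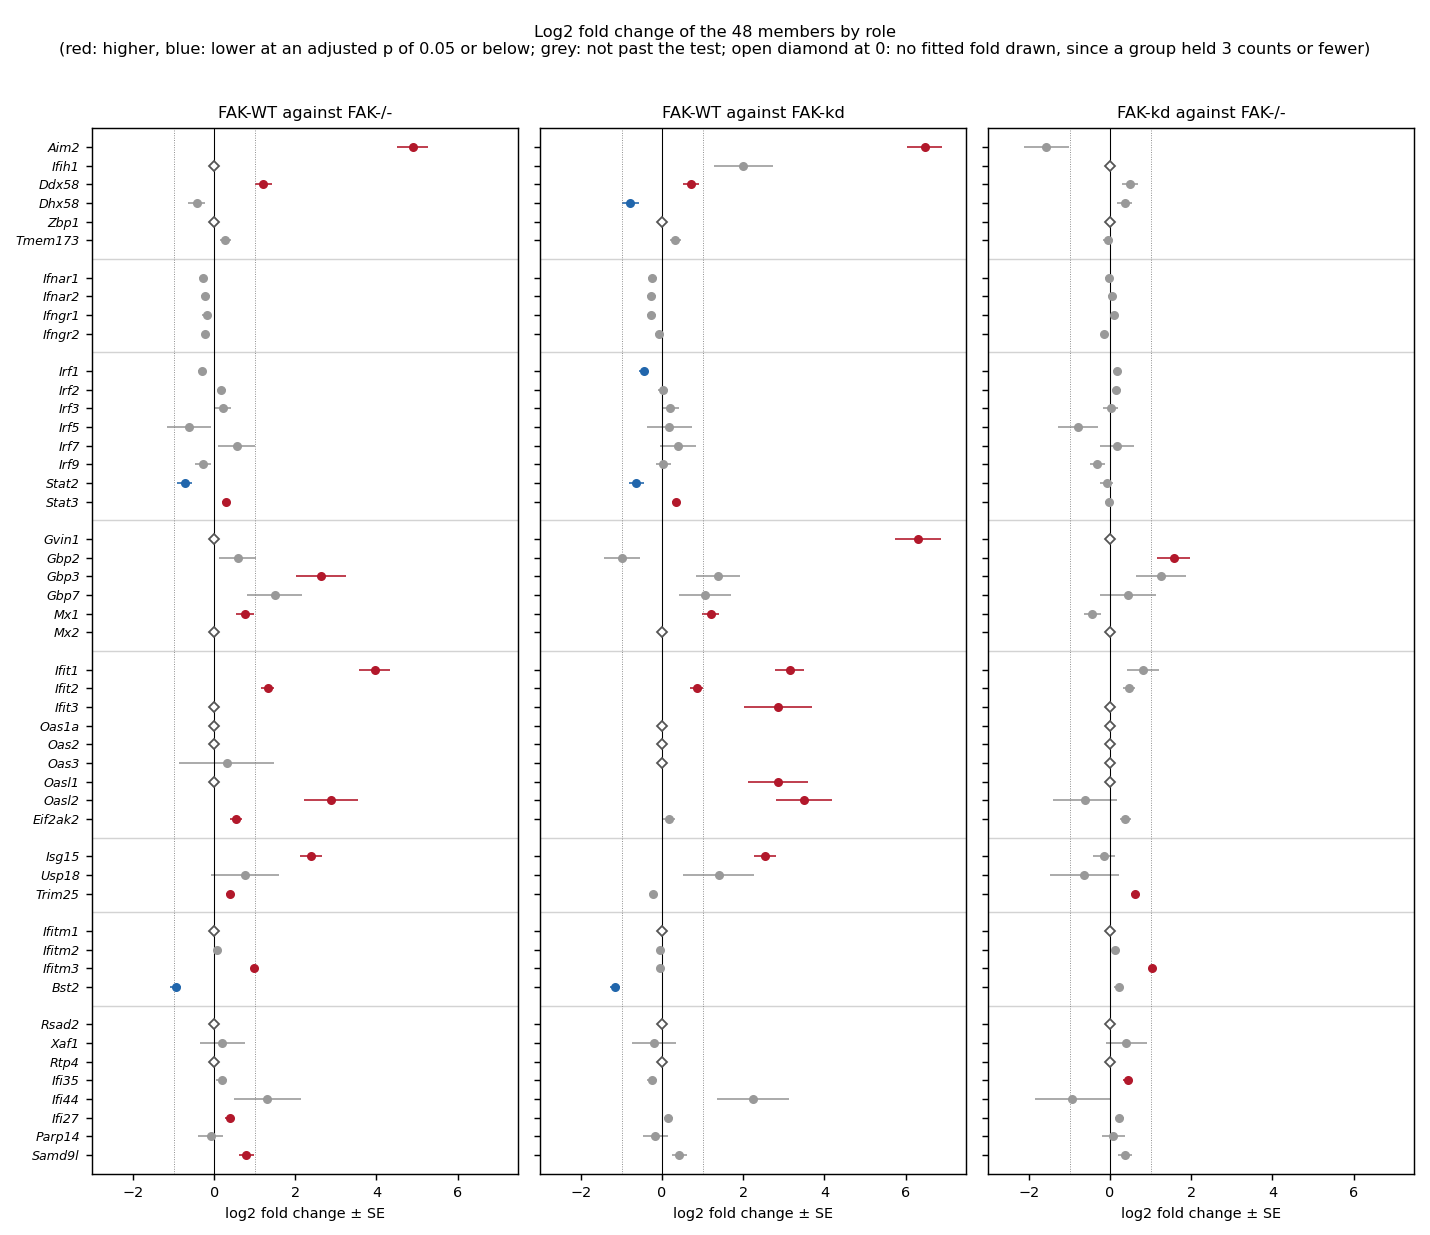
Log2 fold change (x axis, ± SE) of the 48 genes by role in the 3 comparisons, red for higher and blue for lower at an adjusted p of 0.05 or below, grey for the rest, and an open diamond at 0 where a group held 3 counts or fewer and no fitted value is drawn. Dotted lines mark log2 fold changes of 1 in either direction. In both FAK-WT comparisons the red points beyond 2 on the log2 scale belong to the sensors, the GTPases, the IFIT and OAS families and Isg15, while the 4 receptors are grey throughout.

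Among the 6 cytosolic sensors of nucleic acids, Aim2, Ifih1 and Ddx58 were higher in FAK-WT than in FAK-/- and none was lower. Aim2 (chr1:173350879-173466040, plus strand, mm10) encodes the DNA sensor that assembles the AIM2 inflammasome. It had 4, 4 and 6 counts in the FAK-/- libraries (0.120, 0.158 and 0.192 CPM), 1, 3 and 1 in the FAK-kd libraries (0.0300, 0.0899 and 0.0293 CPM), and 5, 149 and 179 in the FAK-WT libraries (6.29, 3.97 and 5.16 CPM). All 3 FAK-WT libraries stood above all others, the shallow one included. Its log2 fold change was 4.90 (SE 0.38, 29.8-fold, adjusted p = 2.7e-07) over FAK-/- and 6.47 (SE 0.44, 88.8-fold, adjusted p = 5.6e-08) over FAK-kd cells, and -1.57 (adjusted p = 0.14) for FAK-kd against FAK-/-.

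Ddx58 (chr4:40203773-40239828, minus strand), the gene of the RNA sensor RIG-I, was graded across the lines. It was at 2.22, 3.71 and 3.20 CPM in FAK-/-, 4.20, 4.34 and 4.25 in FAK-kd and 6.29, 7.77 and 6.37 in FAK-WT libraries. No library of 1 line overlapped with another line. Its log2 fold change was 1.21 (SE 0.21, adjusted p = 6.4e-04) for FAK-WT over FAK-/-, 0.72 (SE 0.20, adjusted p = 0.022) over FAK-kd, and 0.49 (adjusted p = 0.16) for FAK-kd over FAK-/- cells. The difference from FAK-kd was not called without FAK-WT replicate 2 (adjusted p = 0.21), FAK-WT replicate 3 (0.0574) or any 1 of the FAK-kd replicates 1, 2 and 3 (0.0572, 0.0635 and 0.0723).

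Ifih1 (chr2:62595798-62646255, minus strand) encodes MDA5, the sensor of long double-stranded RNA, and was scarce. Its counts were 0, 2 and 0 in FAK-/-, 7, 6 and 1 in FAK-kd and 0, 19 and 24 in FAK-WT libraries. The FAK-WT counts come from the deep libraries (0.506 and 0.692 CPM), and at 0 counts the place of the shallow library is not known. Pooled over libraries its level was 26.5 times that of FAK-/- cells (95% counting interval 6.90 to 226, counting error only, adjusted p = 0.0037), and against FAK-kd the log2 fold change was 2.00 (SE 0.72, adjusted p = 0.072).

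None of the remaining sensors was called in FAK-WT against FAK-/- cells. Dhx58, which encodes LGP2, the third RIG-I-like receptor, was at 4.86 ± 0.505 CPM in FAK-/-, 6.23 ± 1.31 in FAK-kd and 4.41 ± 1.64 in FAK-WT cells and was lower in FAK-WT than in FAK-kd (log2 fold change -0.79, SE 0.21, adjusted p = 0.018). The libraries overlapped through FAK-WT replicate 1 (6.29 CPM against 3.41 and 3.52), and the call was lost without FAK-WT replicate 2 or 3 or FAK-kd replicate 2 or 3 (adjusted p = 0.16, 0.13, 0.12 and 0.0748). Tmem173, which encodes STING, the adaptor downstream of the DNA sensor cGAS, was the most abundant gene of the group at 28.8 ± 1.52, 27.8 ± 5.76 and 35.3 ± 1.05 CPM in FAK-/-, FAK-kd and FAK-WT cells, with all FAK-WT libraries above the others and neither difference past the test (log2 fold changes 0.28 and 0.33, adjusted p = 0.18 and 0.11). Without FAK-/- replicate 3, Tmem173 was called higher in FAK-WT than in FAK-kd cells. Zbp1, a sensor of Z-form nucleic acids, had 0, 2 and 2 counts in FAK-WT libraries and none in any other.

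**Figure D4:**
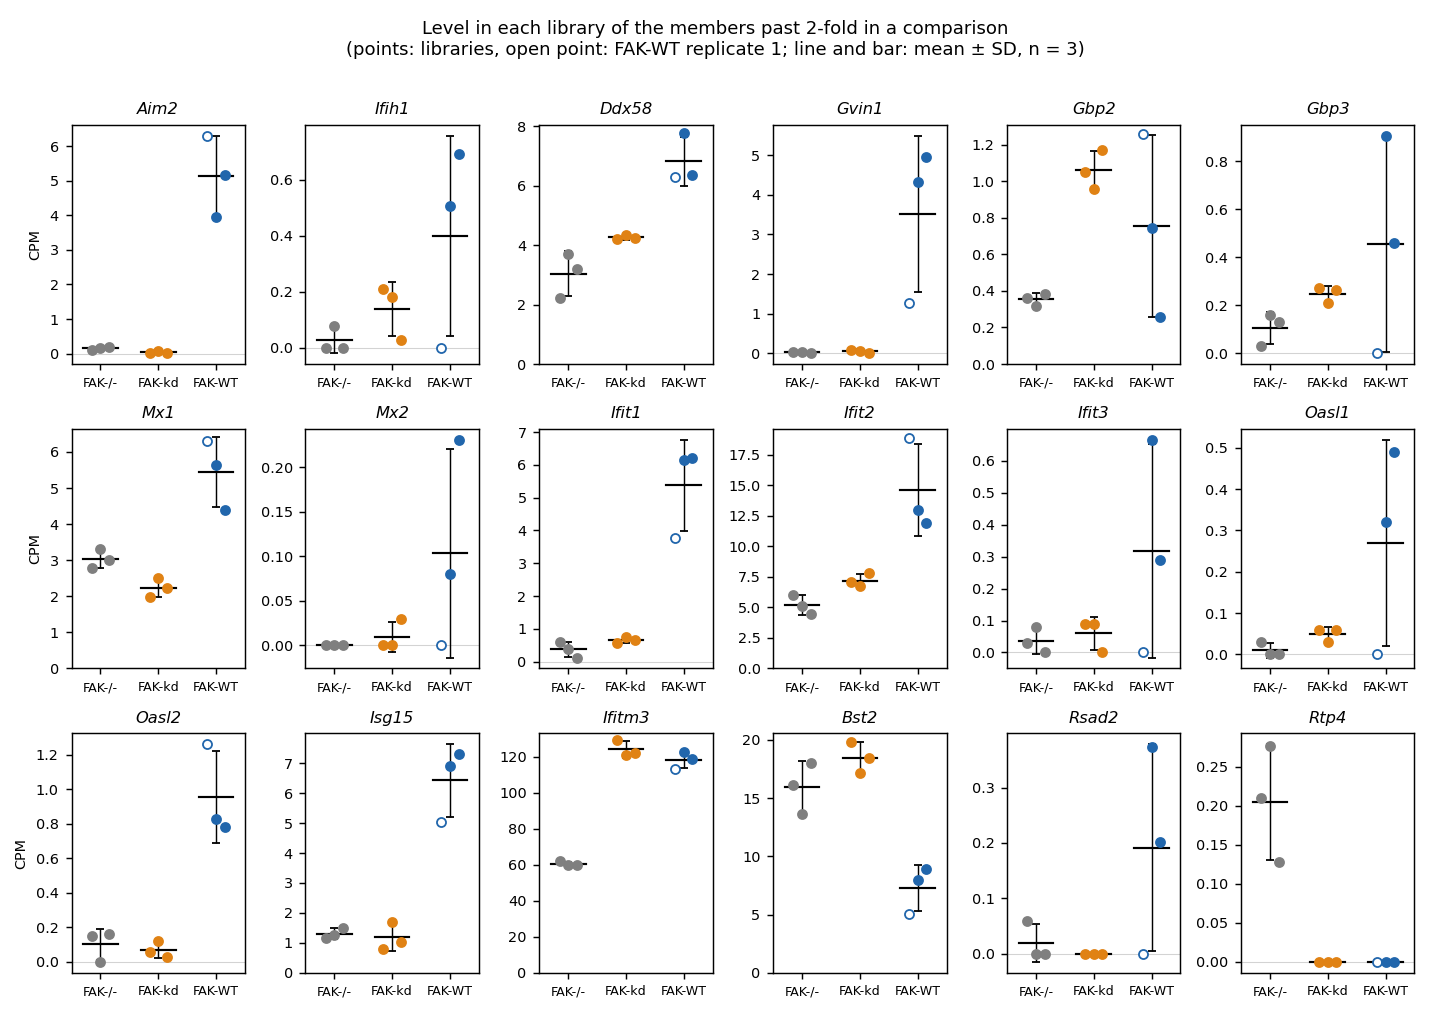
CPM of each library (points, open for FAK-WT replicate 1) with mean and SD (n = 3) for the 18 genes past 2-fold in at least 1 comparison, each panel with its own axis. Aim2, Gvin1, Ifit1 and Isg15 were at most 1.71 CPM in FAK-/- and FAK-kd libraries and higher in the FAK-WT libraries 2 and 3, Ifitm3 was at 59.6 to 62.0 CPM in FAK-/- libraries and 113 to 129 in all others, and Bst2 was lowest in FAK-WT.

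The receptors for interferons were present in all lines and none passed the test. Ifnar1 and Ifnar2, the chains of the type I receptor, were at 43.4 ± 0.448 and 17.0 ± 1.64 CPM in FAK-/-, 42.4 ± 0.512 and 17.6 ± 0.667 in FAK-kd and 33.0 ± 7.88 and 15.1 ± 1.33 in FAK-WT cells. Ifngr1 and Ifngr2, the chains of the type II receptor, were at 23.9 ± 0.852 and 42.0 ± 1.37, 25.4 ± 2.05 and 38.1 ± 1.93, and 22.9 ± 4.17 and 36.2 ± 1.22 CPM. Their log2 fold changes ran from -0.28 to -0.18 for FAK-WT against FAK-/-, from -0.27 to -0.08 against FAK-kd and from -0.14 to 0.09 for FAK-kd against FAK-/- cells. In edgeR 0 of the 4 were called in each comparison, and DESeq2 called 0 in each. At an unadjusted p under 0.05 in edgeR there were 2, 3 and 0, beside 5517, 5423 and 3890 of all 19044 genes. Without FAK-/- replicate 3, Ifnar1 was called lower in FAK-WT than in FAK-/-, and Ifnar1, Ifnar2 and Ifngr1 lower than in FAK-kd cells.

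The STAT and IRF factors moved little. Stat3, the transducer of interleukin-6 family cytokines, was at 47.4, 45.8 and 52.6 CPM in FAK-/-, 43.7, 49.4 and 48.8 in FAK-kd and 68.0, 60.3 and 55.7 in FAK-WT libraries. Its FAK-WT libraries stood above all others by a small margin, with log2 fold changes of 0.29 (SE 0.10, adjusted p = 0.046) over FAK-/- and 0.33 (SE 0.10, adjusted p = 0.024) over FAK-kd cells. The first call was lost without any 1 of FAK-WT replicates 1, 2 and 3 (adjusted p = 0.0757, 0.17 and 0.0641), FAK-/- replicates 1 and 2 (0.0996 and 0.12) and FAK-kd replicates 2 and 3 (0.0599 and 0.0642), and the second without FAK-WT replicate 2 (0.11) or FAK-kd replicates 1 or 3 (0.0721 and 0.0502). Stat2, which acts with IRF9 in type I interferon signaling and is named here after its values were seen, was lower in FAK-WT than in both lines, at 9.81 ± 0.326 CPM in FAK-/-, 9.23 ± 1.97 in FAK-kd and 7.54 ± 3.29 in FAK-WT cells. The FAK-WT libraries 2 and 3 were at 5.83 and 5.45 CPM and the shallow one, at 9 counts, at 11.3. Its log2 fold changes were -0.72 (SE 0.19, adjusted p = 0.014) and -0.64 (SE 0.19, adjusted p = 0.029). DESeq2 called neither (adjusted p = 0.0504 and 0.11), and the calls were lost without FAK-WT replicate 2 (0.11 and 0.17) or 3 (0.15 and 0.24), and against FAK-kd also without FAK-kd replicate 2 (0.0978) or 3 (0.19).

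Irf1, an activator that is itself induced by interferon-γ, was at 16.7 ± 1.16 CPM in FAK-/-, 18.7 ± 1.16 in FAK-kd and 13.0 ± 1.43 in FAK-WT cells, with every FAK-WT library below every other. It was lower in FAK-WT than in FAK-kd (log2 fold change -0.46, SE 0.10, adjusted p = 0.0056; 0.0525 without FAK-WT replicate 3), and -0.30 with an adjusted p of 0.062 against FAK-/- cells. Irf2, which competes with IRF1 for the same sites, was at 28.9 ± 2.12, 32.1 ± 3.94 and 34.2 ± 4.17 CPM, and Irf3, the factor that STING and MAVS activate, at 13.6 ± 2.16, 13.8 ± 1.75 and 20.3 ± 10.0 CPM in FAK-/-, FAK-kd and FAK-WT cells, neither past the test. The other factors, Irf9, Irf7 and Irf5, had group means of 3.67 to 5.03, 0.466 to 1.24 and 0.138 to 0.314 CPM and were called in no comparison. The highest Irf7 mean is that of FAK-WT and rests on 2 counts in the shallow library, without which it is 0.608 CPM, and the lowest Irf5 mean holds a count of 0 there and is 0.207 CPM without it.

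Interferon-inducible GTPases, which attack membranes of intracellular pathogens or trap virus particles, held the largest ratio computed for any of the 48 genes. Gvin1 (chr7:106156556-106215326, minus strand), a very large inducible GTPase, had 1, 1 and 0 counts in FAK-/-, 3, 2 and 0 in FAK-kd and 1, 163 and 172 in FAK-WT libraries (1.26, 4.34 and 4.96 CPM). The gene was at the detection limit in 6 libraries and clearly present in the 2 deep FAK-WT libraries. Pooled over libraries it was 207 times as high as in FAK-/- cells (95% counting interval 56.8 to 1716, adjusted p = 8.5e-07), and its log2 fold change over FAK-kd cells was 6.31 (SE 0.56, adjusted p = 1.2e-06). Of its 31-base words 99.7% also occur in other genes, most of all in Gm4070, so counts can be split between the copies. Summed with Gm4070, which had between 1 and 23 counts, it had 2, 2 and 5 counts in FAK-/-, 7, 7 and 3 in FAK-kd and 3, 186 and 174 in FAK-WT libraries, with log2 fold changes of 5.54 (adjusted p = 1.7e-07) and 4.81 (adjusted p = 3.4e-07).

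Mx1 (chr16:97447035-97462907, minus strand), which traps incoming influenza-like viruses, was at 2.79, 3.31 and 3.01 CPM in FAK-/-, 1.98, 2.52 and 2.23 in FAK-kd and 6.29, 5.64 and 4.38 in FAK-WT libraries. The order was FAK-kd, FAK-/- and FAK-WT with no overlap between lines. FAK-WT was higher than FAK-kd by a log2 fold change of 1.19 (SE 0.22, adjusted p = 9.6e-04) and than FAK-/- by 0.76 (SE 0.21, adjusted p = 0.022), the latter lost without FAK-WT replicate 2 (adjusted p = 0.19) or FAK-/- replicate 1 (0.0647), while FAK-kd against FAK-/- was -0.44 with an adjusted p of 0.24. Its neighbour Mx2 had 0, 0 and 0, then 0, 0 and 1, then 0, 3 and 8 counts in FAK-/-, FAK-kd and FAK-WT libraries. Mx2 was thus at least 4.52-fold higher in FAK-WT than in FAK-/- (3 counts over the group as the floor, adjusted p = 0.028), a call lost without FAK-WT replicate 3 (0.16), FAK-/- replicate 1 (0.0634) or 2 (0.0537) and with the replicate block (0.14).

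The guanylate-binding proteins, which coat vacuoles and bacteria, were low and did not share a pattern. Gbp2 (chr3:142620602-142638008, plus strand) was at 0.360, 0.315 and 0.384 CPM in FAK-/-, 1.05, 0.959 and 1.17 in FAK-kd and 1.26, 0.745 and 0.260 in FAK-WT libraries. Of the 6 GTPase genes of this role, only Gbp2 was called between FAK-kd and FAK-/- cells. FAK-kd was higher by a log2 fold change of 1.57 (SE 0.41, adjusted p = 0.028). The deep FAK-WT libraries were below every FAK-kd library, at 0.745 and 0.260 CPM, and lay on either side of the FAK-/- libraries. FAK-WT replicate 1 rests on 1 count of Gbp2, and its place is not known. The call of Gbp2 between FAK-kd and FAK-/- was not made by DESeq2 (adjusted p = 0.11). It was also lost without FAK-/- replicates 1 or 2 (0.0624 and 0.0751) or FAK-kd replicates 1, 2 or 3 (0.0689, 0.0661 and 0.12). Gbp3 had 1, 4 and 4 counts in FAK-/-, 9, 7 and 9 in FAK-kd and 0, 34 and 16 in FAK-WT libraries. FAK-WT was higher than FAK-/- by a log2 fold change of 2.63 (SE 0.61, adjusted p = 0.0065; 0.0736 in DESeq2 and 0.11 without FAK-WT replicate 2). Gbp7, with 0 to 15 counts a library, was called in no comparison.

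The IFIT proteins bind viral RNA and hold back its translation, and all 3 of their genes were higher in FAK-WT than in both other lines. Ifit1 (chr19:34640871-34650009, plus strand) was at 0.599, 0.394 and 0.128 CPM in FAK-/-, 0.570, 0.749 and 0.673 in FAK-kd and 3.78, 6.15 and 6.20 in FAK-WT libraries. The deep FAK-WT libraries stood above every other, the shallow one rests on 3 counts, and FAK-/- and FAK-kd overlapped. Its log2 fold change was 3.95 (SE 0.39, 15.5-fold, adjusted p = 3.0e-06) over FAK-/- and 3.14 (SE 0.36, 8.81-fold, adjusted p = 1.5e-05) over FAK-kd cells. Ifit2 (chr19:34550694-34576419, plus strand), in the same gene cluster, had a higher base level and a smaller change. It was at 6.05, 5.13 and 4.45 CPM in FAK-/-, 7.08, 6.71 and 7.82 in FAK-kd and 18.9, 13.0 and 11.9 in FAK-WT libraries, with log2 fold changes of 1.32 (SE 0.16, adjusted p = 3.1e-05) and 0.86 (SE 0.16, adjusted p = 0.0013). The 3 lines did not overlap, with FAK-kd above FAK-/- by 0.47 (adjusted p = 0.084).

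Ifit3 (chr19:34583531-34588731, plus strand) had 1, 2 and 0 counts in FAK-/-, 3, 3 and 0 in FAK-kd and 0, 25 and 10 in FAK-WT libraries. Pooled, it was 14.4 times as high as in FAK-/- cells (95% counting interval 4.53 to 73.0, adjusted p = 0.013), and its log2 fold change over FAK-kd was 2.85 (SE 0.84, adjusted p = 0.027). FAK-WT replicate 2 carried most of its counts, and without it the adjusted p was 0.15 and 0.28. Against FAK-kd it was also lost without FAK-kd replicates 1, 2 or 3 (0.0507, 0.0507 and 0.0908). Its copy Ifit3b shares 61.8% of its words. Summed with Ifit3b it had 1, 3 and 0, then 8, 3 and 5, then 0, 47 and 20 counts, with log2 fold changes of 4.13 (adjusted p = 0.0014) and 2.41 (adjusted p = 0.016).

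Of the OAS family, whose enzymes make the messenger 2-5A that activates RNase L, only the OAS-like genes gave calls. Oasl2 (chr5:114896936-114912234, plus strand) had 5, 0 and 5 counts in FAK-/-, 2, 4 and 1 in FAK-kd and 1, 31 and 27 in FAK-WT libraries, with log2 fold changes of 2.88 (SE 0.67, adjusted p = 0.0065) and 3.50 (SE 0.70, adjusted p = 0.0021). Its neighbour Oasl1 (chr5:114923240-114937915, plus strand), which restrains translation of Irf7, had 1, 0 and 0, then 2, 1 and 2, then 0, 12 and 17 counts. The deep FAK-WT libraries stood above all FAK-/- and FAK-kd libraries for both genes. Pooled, Oasl1 was 35.7 times as high in FAK-WT as in FAK-/- cells (95% counting interval 5.92 to 1459, adjusted p = 0.0020), and its log2 fold change over FAK-kd was 2.86 (SE 0.74, adjusted p = 0.013; 0.12 without FAK-WT replicate 3 and 0.0554 without FAK-kd replicate 2). Oas1a, Oas2 and Oas3 had at most 5, 1 and 4 counts in any library and no call, and Oas1a shares 68.7% of its words with Oas1g.

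Eif2ak2 encodes PKR, the kinase that stops translation on binding double-stranded RNA. It was well expressed, at 18.1, 18.7 and 14.4 CPM in FAK-/-, 22.2, 21.5 and 22.8 in FAK-kd and 40.3, 22.5 and 23.8 in FAK-WT libraries. FAK-/- was the low line, and FAK-WT exceeded it by a log2 fold change of 0.54 (SE 0.15, adjusted p = 0.017). The values were 0.16 (adjusted p = 0.50) for FAK-WT over FAK-kd and 0.38 (adjusted p = 0.11) for FAK-kd over FAK-/- cells.

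Isg15 (chr4:156199424-156200818, minus strand) encodes a ubiquitin-like protein that is attached to other proteins or secreted. It was at 1.17, 1.26 and 1.5 CPM in FAK-/-, 0.809, 1.71 and 1.02 in FAK-kd and 5.04, 6.92 and 7.32 in FAK-WT libraries. All FAK-WT libraries were above all others, and FAK-kd and FAK-/- overlapped. Its log2 fold change was 2.39 (SE 0.28, 5.23-fold, adjusted p = 1.7e-05) over FAK-/- and 2.54 (SE 0.28, 5.81-fold, adjusted p = 9.4e-06) over FAK-kd cells, and -0.15 (adjusted p = 0.81) between the latter. Usp18, the protease that removes ISG15 and blunts signaling at IFNAR2, had at most 8 counts a library and no call. Trim25, the ubiquitin ligase that activates RIG-I, followed neither. It was at 20.2, 19.6 and 17.5 CPM in FAK-/-, 27.0, 32.0 and 29.0 in FAK-kd and 25.2, 25.1 and 24.7 in FAK-WT libraries, and the lines did not overlap, with FAK-/- lowest and FAK-kd highest. Trim25 was higher in FAK-kd (log2 fold change 0.62, SE 0.09, adjusted p = 6.8e-04) and in FAK-WT (0.38, SE 0.10, adjusted p = 0.016; 0.0805 and 0.0655 without FAK-WT replicate 2 or 3) than in FAK-/- cells. FAK-WT against FAK-kd did not pass the test (-0.23, SE 0.10, adjusted p = 0.14), and Trim25 was called lower there without FAK-/- replicate 3.

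The membrane restriction factors, which act on virus entry and release, split in both directions. Ifitm3 (chr7:141009586-141010770, minus strand), which blocks fusion of viruses in endosomes, was at 62.0, 59.7 and 59.6 CPM in FAK-/-, 129, 121 and 122 in FAK-kd and 113, 122 and 119 in FAK-WT libraries. Both lines with a FAK protein put back lay near 2-fold the level of FAK-/-, and they overlapped with each other but not with FAK-/-. Its log2 fold change was 0.98 (SE 0.07, 1.97-fold, adjusted p = 6.2e-08) for FAK-WT and 1.04 (SE 0.06, 2.05-fold, adjusted p = 8.2e-08) for FAK-kd over FAK-/- cells, and -0.06 (SE 0.07, adjusted p = 0.61) for FAK-WT against FAK-kd. Ifitm2, its neighbour on chromosome 7, did not share this, at 145 ± 0.807, 157 ± 6.38 and 153 ± 3.05 CPM and no call, and Ifitm1 had at most 5 counts in any library. Of the words of Ifitm3 and Ifitm2, 20.5% and 55.5% occur in other genes, so reads can be shared between them and their copies.

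Bst2 (chr8:71534255-71537456, minus strand) encodes tetherin, which holds budding virus particles at the cell surface, and it went the other way. It was at 16.1, 13.6 and 18.1 CPM in FAK-/-, 19.8, 17.2 and 18.4 in FAK-kd and 5.04, 7.96 and 8.88 in FAK-WT libraries. Every FAK-WT library was below every other. It was lower in FAK-WT by a log2 fold change of -1.16 (SE 0.13, 2.24-fold, adjusted p = 1.5e-05) against FAK-kd and -0.95 (SE 0.13, 1.93-fold, adjusted p = 1.1e-04) against FAK-/- cells, which differed by 0.21 (adjusted p = 0.34).

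Among 8 further interferon-stimulated genes, 2 scarce ones were past 2-fold in opposite directions. Rsad2 (chr12:26442746-26456452, minus strand) encodes viperin, which makes a chain-terminating nucleotide. It had 2, 0 and 0 counts in FAK-/-, 0 in each FAK-kd and 0, 14 and 7 in the FAK-WT libraries. It was at least 9.67-fold higher in FAK-WT than in FAK-kd cells (floor of 3 counts over the group, adjusted p = 0.0062) and, pooled, 12.9 times as high as in FAK-/- cells (95% counting interval 3.16 to 114, adjusted p = 0.036). The latter was lost without FAK-WT replicates 2 or 3 (0.20 and 0.0618), FAK-/- replicates 2 or 3 (0.0873 and 0.0689) and with the replicate block (0.0777). Rtp4 (chr16:23520291-23614222, plus strand), a chaperone of receptors that is induced by interferon, had 7, 7 and 4 counts in the FAK-/- libraries and 0 in all 6 others. Its level was lower by at least 4.87-fold in FAK-WT and at least 6.73-fold in FAK-kd cells than in FAK-/- (adjusted p = 0.020 and 0.021). Both calls were lost with the replicate block (0.0745 and 0.0647), the first without FAK-WT replicates 2 or 3 (0.0949 and 0.0866) and the second without FAK-/- replicate 2 (0.0513) or FAK-kd replicates 1, 2 or 3 (0.0570, 0.0653 and 0.0777).

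The expressed genes of this group changed less. Samd9l, a restrictor of translation, was at 6.89 ± 1.45 CPM in FAK-/-, 8.90 ± 1.90 in FAK-kd and 12.8 ± 2.06 in FAK-WT cells, and Ifi27, a small mitochondrial protein, at 22.2 ± 1.68, 26.1 ± 0.325 and 31.5 ± 6.53 CPM. For both, all FAK-WT libraries were above all others. They were higher in FAK-WT than in FAK-/- by log2 fold changes of 0.79 (SE 0.19, adjusted p = 0.0083) and 0.38 (SE 0.11, adjusted p = 0.026; 0.0578 and 0.0504 without FAK-WT replicate 2 or 3). Ifi35 was at 7.53 ± 0.659, 10.2 ± 0.102 and 8.99 ± 1.02 CPM and was higher in FAK-kd than in FAK-/- cells by 0.43 (SE 0.12, adjusted p = 0.036). That call was not made by DESeq2 (0.0996), with the replicate block (0.0590) or without any 1 of 7 libraries: FAK-WT replicates 2 and 3 (0.0667 and 0.0713), FAK-/- replicates 1 and 2 (0.14 and 0.0607) and FAK-kd replicates 1, 2 and 3 (0.0931, 0.15 and 0.13). Parp14 was at 1.27 to 1.43 CPM as group means with no call, and Xaf1 and Ifi44 had at most 14 counts in any library and no call.

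Other genes of the pathway, 91 matched of 107 listed, were called in both directions in FAK-WT cells. Of them, 13 were higher and 11 lower in FAK-WT than in FAK-/- (14.3% and 12.1%, against 8.01% and 9.96% of all genes). Against FAK-kd 6 were higher and 13 lower (6.59% and 14.3%, against 7.58% and 10.2%). In FAK-kd against FAK-/- cells 9 were higher and 1 lower (9.89% and 1.10%, against 3.97% and 3.88%). Their median log2 fold changes were 0.06, 0.07 and 0.03, and 0.04, 0.01 and 0.14 with genes at 0 in a group set to their bound (n = 80, 77 and 76). The interferon genes themselves were close to silent. Ifnb1, Ifne and Ifna13 had at most 1 count in any library and Ifng at most 2, while Ifnz had 0 to 18 counts a library, with means of 0.456, 0.239 and 0.203 CPM in FAK-/-, FAK-kd and FAK-WT cells (0.304 in FAK-WT without the shallow library, which had no count). In edgeR 0 of these 5 were called in each comparison, 0 had an unadjusted p under 0.05, and DESeq2 called 0.

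The largest differences in that list lay in a few genes. Nlrc5, the transactivator of MHC class I genes, had 1, 1 and 1 counts in FAK-/-, 2, 1 and 1 in FAK-kd and 2, 77 and 25 in FAK-WT libraries. Pooled, its level in FAK-WT was 42.7 times that in FAK-/- cells (95% counting interval 14.2 to 210, adjusted p = 2.5e-05), and its log2 fold change over FAK-kd was 5.07 (SE 0.61, adjusted p = 2.5e-05). Gbp9 had 1 or 2 counts in each FAK-/- and FAK-kd library and 0, 36 and 15 in FAK-WT libraries (log2 fold changes 3.76 and 3.92, adjusted p = 0.0011 and 6.7e-04), and Ifit3b, given with Ifit3, was 39.4 times as high in FAK-WT as in FAK-/- cells when pooled (95% counting interval 6.58 to 1605, adjusted p = 0.0071; 0.0698 without FAK-WT replicate 2). Tlr3, the endosomal sensor of double-stranded RNA, had 16, 11 and 5 counts in FAK-/-, 22, 24 and 20 in FAK-kd and 2, 0 and 0 in FAK-WT libraries, and was lower in FAK-WT than in FAK-kd cells (pooled ratio 0.0419, 95% counting interval 0.00497 to 0.157, adjusted p = 0.026). DESeq2 did not call it (0.29), nor was it called without FAK-WT replicates 2 or 3 (0.24 and 0.23) or FAK-kd replicates 1, 2 or 3 (0.0636, 0.0615 and 0.0712). The deep FAK-WT libraries held none of it.

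Between FAK-kd and FAK-/- cells the steepest changes of the list were the nuclear body genes Sp110 and Sp100 and the galectin gene Lgals9. Sp100 was at 1.16 ± 0.317 CPM in FAK-/-, 6.91 ± 0.744 in FAK-kd and 9.41 ± 3.87 in FAK-WT cells, Sp110 at 0.163 ± 0.0395, 1.31 ± 0.0352 and 2.80 ± 1.94 (1.68 in FAK-WT without the shallow library), and Lgals9 at 0.493 ± 0.16, 1.61 ± 0.222 and 2.37 ± 0.253. The log2 fold changes of FAK-kd over FAK-/- were 2.55 (SE 0.23, adjusted p = 5.3e-06), 2.95 (SE 0.40, adjusted p = 2.4e-04) and 1.72 (SE 0.31, adjusted p = 0.0025). Those of FAK-WT over FAK-/- were 2.72, 3.50 and 2.24 (adjusted p = 1.3e-06, 2.5e-05 and 1.4e-04), and those of FAK-WT over FAK-kd 0.17, 0.55 and 0.52 (adjusted p = 0.65, 0.34 and 0.28). As for Ifitm3, both lines with a FAK protein put back were higher than FAK-/- for these 3 genes.

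Ly6e and Socs3 were named after their values were seen. Ly6e, a surface protein that inhibits coronavirus entry, was at 77.0 ± 2.5 CPM in FAK-/-, 172 ± 3.51 in FAK-kd and 79.8 ± 2.97 in FAK-WT cells, so that FAK-kd stood above both other lines (log2 fold changes of 1.16 over FAK-/- and -1.09 for FAK-WT against FAK-kd, adjusted p = 2.3e-08 and 1.8e-08). Socs3, a feedback inhibitor of JAK signaling, was lower in FAK-WT, at 45.7 ± 9.42, 45.2 ± 1.16 and 21.3 ± 4.37 CPM in the same order (log2 fold changes -0.98 against FAK-/- and -0.96 against FAK-kd, adjusted p = 1.2e-04 and 1.3e-04).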

How the data were processed

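RNA-seq libraries of FAK-/-, FAK-kd- and FAK-WT-expressing SCC cells (3 replicates each, groups from the sample labels) were used. The authors pseudoaligned paired-end reads from an unstranded kit with kallisto 0.43.1 (per the submitters' processing notes, with GRCm38/mm10; the transcriptome release is not given in the sources used here) and used tximport to summarize per gene. What was deposited are expected counts in whole numbers, unscaled for depth. Without strand, reads of overlapping antisense genes cannot be told apart. Positions and transcript lengths were taken from GENCODE for mm10, promoter windows from RefSeq.

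All 19044 genes were fitted in edgeR 4.0.16 (R 4.3.3; TMM, estimateDisp, glmQLFit, glmQLFTest) over 9 libraries, cell line being the sole factor, with Benjamini-Hochberg adjustment, as 3 comparisons. A gene was called at an adjusted p of 0.05 or below, and past 2-fold with log2 fold changes of 1 or more in either direction as well. The SE is the log2 fold change divided by the square root of the F statistic. CPM use TMM-scaled library sizes. Where a group had no count, a bound against 3 counts over the group is given, and where it had 1 to 3 counts in all, the ratio of pooled counts with an exact 95% interval, both for counting error only. Reads shared between genes were approximated by 31-base words on both strands. The study calls the RNA-seq libraries of a line biological replicates without saying what separated them, such as cultures or days, and p-values measure only the spread between them, within 1 clone. The exact permutation test of 3 against 3 libraries cannot go below 0.1 and was not used.

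The replicate numbers were checked as a pairing: deviations from the group means correlated with a mean r of -0.0172 (9 pairs, -0.0596 to 0.0640) between libraries with the same number, so they were not taken to pair the lines. The genes and lists were chosen with earlier results of these data known. Values in every library are given for genes past 2-fold in a comparison, and values for up to 4 others per role with the highest mean CPM. Of the pathway list, the 3 called genes with the largest log2 fold change in size per comparison and the interferon genes are named. The fits were tested on simulated counts. Alternatives were DESeq2 1.42.0, edgeR with DESeq2 size factors, unscaled library sizes, filterByExpr, fits restricted to the pair of groups, the replicate number as a block, glmTreat against a log2 fold change of 1, leaving out each library in turn and, added after seeing the data, summed counts of near-identical genes.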

Additional observations from a re-analysis of the deposited data

How the results depend on the processing

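With FAK-WT replicate 1 left out, 19 of 20 genes remained higher and 3 of 3 lower in FAK-WT than in FAK-/-, 12 of 12 and 4 of 4 against FAK-kd, and 4 of 4 and 1 of 1 in FAK-kd against FAK-/-. Of 44 calls of the described genes, none changed sign under any alternative. They were recomputed 728 times and stayed past the test in 618. Of the 100 values not called, 23 of 1623 alternative values were past the test and 29 changed sign without a call on either side. No scaling moved the median of all genes by more than 0.1 on the log2 scale.

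Leaving out each library in turn, the genes higher in FAK-WT than in FAK-/- numbered 13 to 21 (past 2-fold 10 to 13) and the lower ones 1 to 4 (past 2-fold 0 to 2). Against FAK-kd they numbered 9 to 16 (7 to 11) and 1 to 8 (1 to 1), and for FAK-kd against FAK-/- 2 to 6 (0 to 2) and 0 to 1 (0 to 1). The count of 13 came without FAK-WT replicate 2, and that of 8 without FAK-/- replicate 3. Calls over all genes also fell in the former fit and rose in the latter.

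The test against a 2-fold change itself (glmTreat) called fewer genes by its construction. It left 6 higher and 0 lower in FAK-WT against FAK-/- (Aim2, Ifih1, Gvin1, Ifit1, Oasl1 and Isg15). Against FAK-kd it left 6 higher and 0 lower, and for FAK-kd against FAK-/- 0 and 0. Over all 19044 genes it called 433, 450 and 117 in either direction. For FAK-kd against FAK-/-, 13 of the 48 genes had an unadjusted p under 0.05 in the quasi-likelihood test, beside 3890 of all 19044. DESeq2, which gave an adjusted p for 35 of the 48 genes, called 1 gene lower and 8 higher past 2-fold (0 lower past 2-fold) in FAK-WT against FAK-/-, and 2 higher, 0 lower and 1 past 2-fold in FAK-kd against FAK-/-. With filterByExpr, which kept 32 of the genes, 7 were higher and 0 lower past 2-fold in FAK-WT against FAK-/-, and 0 lower in FAK-kd against FAK-/-. With the replicate block, which changed the calls of Mx2, Rsad2, Rtp4, Stat3 and Ifi35, 0 genes were lower past 2-fold in FAK-WT and 0 lower in FAK-kd than in FAK-/- cells. Genes under about 3.78 CPM could not be told from absent in FAK-WT replicate 1.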
